A study of Mus musculus with 79 samples.

Results

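Adult neurogenesis and proliferation genes were followed in 2 brain regions of 40 male CD-1 mice. They are 8 of the 55471 gene identifiers counted, chosen as the symbols that mark successive steps of adult neuron production (Eomes, Neurod1, Igfbpl1, Sox11 and Dcx) and dividing cells (Mki67, Top2a and Cdk1), and each symbol matched 1 identifier. The mice, 9 to 10 weeks old, went through 21 days of chronic social defeat stress (CSDS) or were left as controls (CTRL), then received 1 intraperitoneal injection of ketamine at 10 mg/kg or of saline. Tissue was punched 7 days later from the ventral hippocampus (vHipp) and the medial prefrontal cortex (mPFC), and stranded mRNA libraries were sequenced. Each of the 4 groups per region (CTRL saline, CTRL ketamine, CSDS saline, CSDS ketamine) held 10 mice, apart from 9 mPFC libraries of CSDS ketamine mice. The mice were housed in social groups of 4, and the labels do not say which mice shared one. All mice were labelled wild type, and a punch holds every cell type of the tissue it takes. Library totals ran from 11782570 to 41767119 counts in the vHipp (median 20121100) and from 11726129 to 34501588 in the mPFC (median 19519631).

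In adult mice, granule neurons are added throughout life to the dentate gyrus of the hippocampus, from stem cells of the subgranular zone. Their transit-amplifying progeny switch on Eomes, a T-box transcription factor, and then Neurod1, a bHLH factor needed for granule neuron differentiation. Neuroblasts and immature neurons carry Igfbpl1, a secreted IGF-binding protein-like factor, Sox11, an SRY-box factor of newborn neurons, and Dcx, the microtubule-binding protein doublecortin. Mki67 encodes the Ki-67 protein of cycling cells, Top2a the topoisomerase that untangles DNA for mitosis, and Cdk1 the kinase that drives entry into mitosis. Cells of other lineages also divide in the adult brain, oligodendrocyte precursors above all, and the neuronal genes are used outside newborn cells too: Neurod1 stays on in mature granule neurons. In such bulk punches, fewer cells of a type and less RNA per cell cannot be told apart.

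The 3 proliferation genes share promoter letters that the choice of genes did not use, and their promoters are shown for that reason. Many cell cycle genes are read through a CHR element, TTTGAA, and CCAAT boxes. Below are the 250 bases before each start in RefSeq's annotation of GRCm38.p6, written along the gene's strand, with TTTGAA and CCAAT on either strand in capitals (TTCAAA and ATTGG are the same motifs read from the other strand).
Mki67 (chr7:135716380-135716629, minus strand): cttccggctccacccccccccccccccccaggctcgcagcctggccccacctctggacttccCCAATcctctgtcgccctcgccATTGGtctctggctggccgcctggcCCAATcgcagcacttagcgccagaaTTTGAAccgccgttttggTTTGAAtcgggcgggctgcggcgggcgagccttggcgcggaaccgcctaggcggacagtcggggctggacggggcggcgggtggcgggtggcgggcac
Top2a (chr11:99024190-99024439, minus strand): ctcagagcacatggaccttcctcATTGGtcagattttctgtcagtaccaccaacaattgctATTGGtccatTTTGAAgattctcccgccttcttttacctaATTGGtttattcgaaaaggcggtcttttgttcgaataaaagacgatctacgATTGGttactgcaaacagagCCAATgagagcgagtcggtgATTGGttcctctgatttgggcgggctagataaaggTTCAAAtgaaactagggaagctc
Cdk1 (chr10:69352913-69353162, minus strand): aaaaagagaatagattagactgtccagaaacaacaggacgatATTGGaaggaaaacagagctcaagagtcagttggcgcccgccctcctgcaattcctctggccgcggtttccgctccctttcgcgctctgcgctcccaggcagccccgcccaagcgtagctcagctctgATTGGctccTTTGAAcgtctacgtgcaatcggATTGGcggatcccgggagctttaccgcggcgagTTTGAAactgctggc
Each promoter held 2 matches to TTTGAA, and CCAAT matched 3 times in Mki67, 6 times in Top2a and 3 times in Cdk1, with 0 matches overlapping the other motif. Both motifs stood together in 3 of 3 proliferation windows of 300 bases (250 before to 50 after the start), in 1 of 5 windows of the neurogenesis genes (that of Sox11) and in 6.95% of all 32851 promoter windows. TTTGAA was found in 17.9% and CCAAT in 37.4% of all windows, each with or without the other. Of 37 windows of other cell cycle genes (33 genes of a list of 40 had one), 18 held both, or 48.6%. Dcx, with 2 annotated starts, and Eomes held CCAAT without TTTGAA, Neurod1 held neither, and Igfbpl1 is named only. These matches describe letters and not bound sites.

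The genes lie at the following places of GRCm38, as the annotation has them. Eomes spans 118478212 to 118486132 of chromosome 9 on the plus strand, and the other genes are on the minus strand. Neurod1 spans 79452521 to 79456751 of chromosome 2, Igfbpl1 45809468 to 45826923 of chromosome 4, Sox11 27334264 to 27342574 of chromosome 12 and Dcx 143855842 to 143933311 of chromosome X. Mki67 spans 135689784 to 135716361 of chromosome 7, Top2a 98992943 to 99024189 of chromosome 11 and Cdk1 69335146 to 69352938 of chromosome 10. Counts of a gene cover its exons, from 2729 bases in Neurod1 to 12647 in Dcx. Neurod1 overlaps Cerkl and Top2a overlaps Gm23451 on the same strand, so reads in the shared bases are uncertain.

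Levels are given as CPM, a gene's counts relative to the library's total, scaled with trimmed-mean (TMM) factors over all 79 libraries. Per kilobase of exon, the vHipp order began with Neurod1 at 9.60 ± 2.71 CPM per kb (SD, n = 40 mice), well above Sox11 at 1.81 ± 0.405 and Dcx at 1.75 ± 0.264, which did not differ beyond their spread. Igfbpl1 followed at 0.154 ± 0.116, Mki67 at 0.0771 ± 0.0332, Top2a at 0.0657 ± 0.0293, Cdk1 at 0.0281 ± 0.0314 and Eomes at 0.0199 ± 0.0216 CPM per kb, neighbours that overlapped within 1 SD. In the mPFC, Neurod1 (4.93 ± 0.959 CPM per kb, n = 39) and Dcx (4.21 ± 0.620) led and overlapped within 1 SD, Sox11 came next at 1.38 ± 0.225, and Igfbpl1, Mki67, Top2a, Cdk1 and Eomes lay between 0.119 and 0.0141 CPM per kb. Thus 3 of the 8 genes were well measured, at 6.44 CPM or more in every library. The other 5 were rare transcripts: the median library held 15 counts of Mki67, 11.5 of Top2a, 8.5 of Igfbpl1, 2 of Cdk1 and 1 of Eomes in the vHipp. Eomes was at 0 counts in 10 of 40 vHipp and 24 of 39 mPFC libraries, and a count of 0 allows up to 3 counts, or 0.0770 to 0.254 CPM by library, for counting error only.

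**Figure D1:**
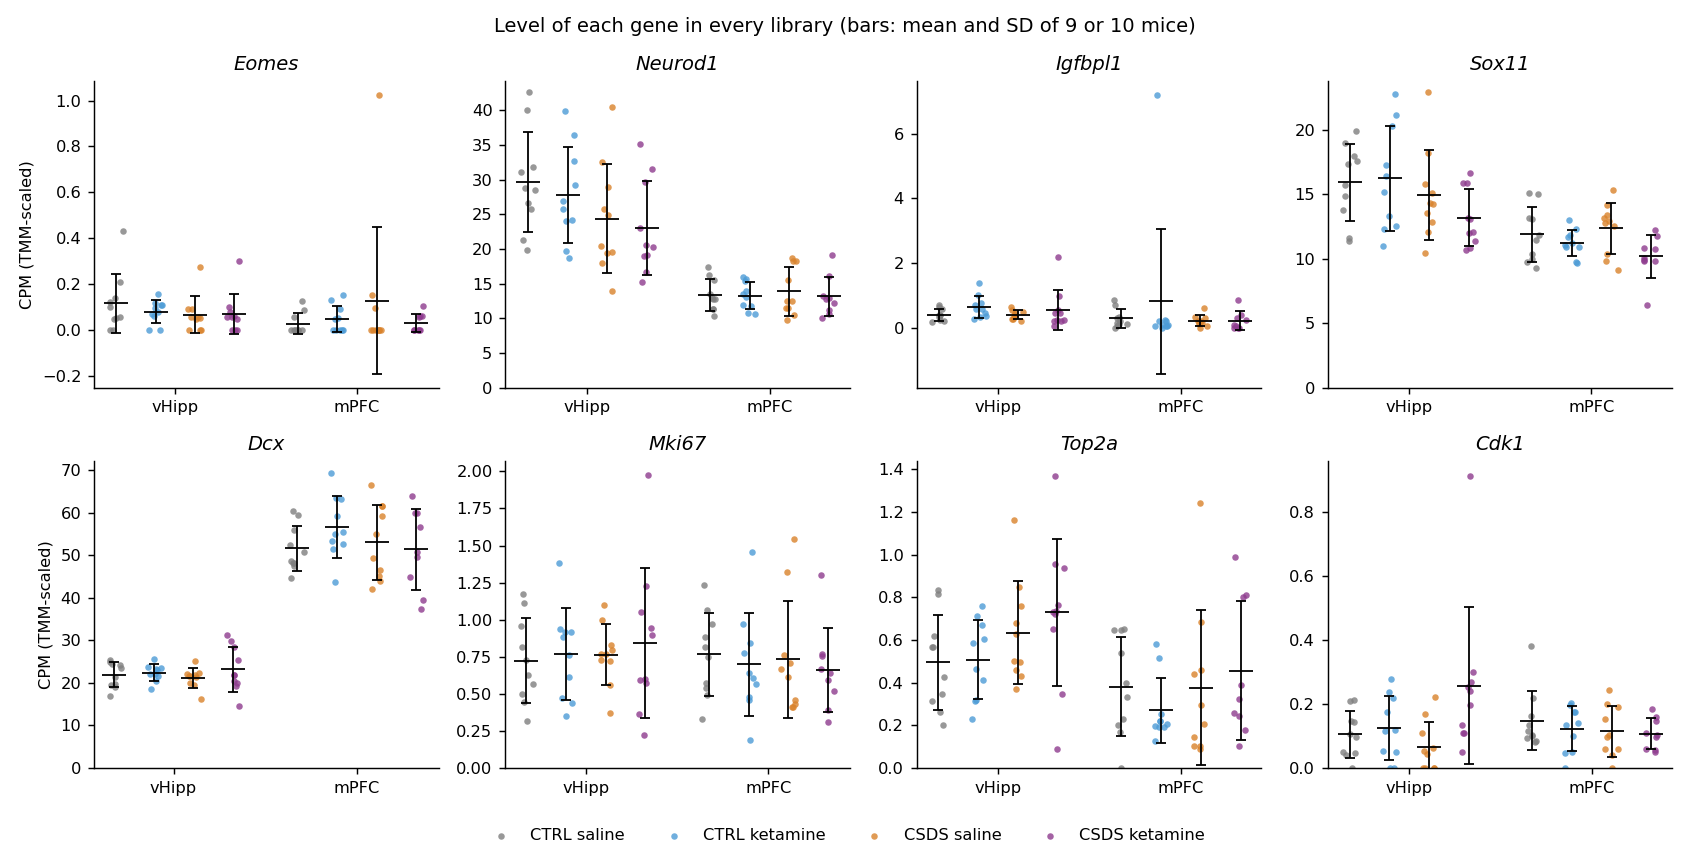
Level of each gene (CPM, TMM-scaled, linear axes with their own range) in every library, by region and group; points are libraries and bars are mean and SD. Dcx is higher in all mPFC libraries than in any vHipp library, Neurod1 is higher in the vHipp, and single libraries stand out for Igfbpl1 (7.21 CPM) and Eomes (1.02 CPM) in the mPFC.

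Marker genes matched the labelled regions. Of 9 dentate granule neuron markers, 8 were higher in the vHipp (Dsp, a desmosomal protein, by 5.04 on the log2 scale), and all 7 cortical projection neuron markers were higher in the mPFC. The mean summed CPM of other lists was alike in the vHipp and the mPFC. It was 517 and 480 for the neural stem and progenitor list, which includes Gfap and Vim. It was 73.4 and 73.3 for the olfactory-lineage list, and 2377 and 2351 for the neuroblast and immature neuron list. Such sums are not a measure of progenitors or neuroblasts in a punch. Some libraries stood apart. The vHipp library of mouse 11 (CSDS ketamine) was above the other 39 in the summed CPM of the progenitor (1140 against at most 727), oligodendrocyte precursor (569 against at most 427), microglia (699 against at most 406), endothelial (325 against at most 234), olfactory-lineage (159 against at most 97.7) and Cajal-Retzius (831 against at most 377) markers, and that of mouse 9 (CSDS saline) in choroid plexus markers (703 CPM against a median of 22.6). The mPFC library of mouse 26 (CTRL ketamine) was highest in olfactory-lineage neuroblast (98.4 against at most 92.2) and ependymal (18.1 against at most 10.3) markers and lowest in those of cortical projection neurons and dentate granule neurons (189 against at least 192). The mPFC library of mouse 10 (CSDS saline) held the highest Eomes and the highest sum of the neuroblast and immature neuron list (2605 against at most 2581), a list in which the vHipp library of mouse 11 was lowest (1911 against at least 2069). Several results that rest on these libraries are given with and without them, but not all.

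The first question was how the 2 regions differ, over all groups. The neurogenesis genes did not move as one: Neurod1 and Sox11 were higher in the vHipp, where the dentate gyrus lies, while Dcx was higher in the mPFC. Among the proliferation genes, Top2a was higher in the vHipp. In edgeR's quasi-likelihood fit, with p-values adjusted over all genes after Benjamini and Hochberg, 4 of the 8 passed an adjusted p of 0.05, 3 higher and 1 lower in the vHipp. Of the 31534 genes tested 48.9% passed, 24.4% higher and 24.5% lower, so the share among the 8 was near the background. This fit did not pair the 2 regions of a mouse. With the mouse as a block, Igfbpl1 passed as well.

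Dcx ran from 14.6 to 31.2 CPM (median 21.9) in the vHipp and from 37.3 to 69.4 CPM (median 52.8) in the mPFC. The ranges did not overlap, and Dcx was higher in the mPFC in 39 of 39 mice with both regions. The log2 difference, vHipp minus mPFC, was -1.26 ± 0.05 (SE; adjusted p = 1.88e-38), or 2.40 times more in the mPFC by group means. Neurod1 ran from 14.0 to 42.6 CPM (median 25.8) in the vHipp against 9.70 to 19.2 CPM (median 12.8) in the mPFC, a log2 difference of 0.96 ± 0.08 (adjusted p = 2.01e-19). It was higher in the vHipp in 38 of 39 mice, although the ranges overlapped. Sox11 differed less, with 10.5 to 23.0 CPM (median 14.6) in the vHipp against 6.44 to 15.4 CPM (median 11.2) in the mPFC (log2 difference 0.40 ± 0.06, adjusted p = 1.64e-08, higher in the vHipp in 36 of 39 mice). So the 2 transcription factors of the granule lineage and the doublecortin transcript took opposite orders between the regions of the same mice.

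Igfbpl1 ran from 0.0449 to 2.17 CPM (median 0.418) in the vHipp, with a median of 0.147 CPM and 6 libraries at 0 in the mPFC. The log2 difference was 0.58 ± 0.32 (adjusted p = 0.138). The highest mPFC library, that of mouse 26, held 7.21 CPM, where the next held 0.872 CPM. Without that library, the vHipp library of mouse 11 and the mPFC library of mouse 10, the difference was 1.30, and with the mouse as a block on all libraries it was 0.99 (adjusted p = 0.00448). Igfbpl1 was higher in the vHipp in 31 of 39 mice. Eomes behaved in a like way: its median was 0.0579 CPM in the vHipp and 0 in the mPFC, and the log2 difference of 0.64 ± 0.40 (adjusted p = 0.193) became 0.95 (adjusted p = 0.0612) with the block and 1.23 without the same 3 libraries. Mice 10 and 26 were chosen for their high Eomes and Igfbpl1 in the mPFC, so the values of these genes without them are descriptions, with no test. The mPFC library of mouse 10 held 23 of the 49 Eomes counts of all mPFC libraries.

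Top2a ran from 0.0887 to 1.37 CPM (median 0.596) in the vHipp and from 0 to 1.24 CPM (median 0.254) in the mPFC. The groups overlapped, with 30 of 39 mice higher in the vHipp (log2 difference 0.67 ± 0.18, adjusted p = 0.00138, and 0.59 without the 3 libraries). Mki67 had medians of 0.766 and 0.643 CPM, with a 95% interval of the log2 difference from -0.16 to 0.39 (adjusted p = 0.527). Cdk1 had medians of 0.110 and 0.103 CPM, with an interval from -0.40 to 0.35 (adjusted p = 0.940). For these 2 genes no regional difference was detected.

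**Figure D2:**
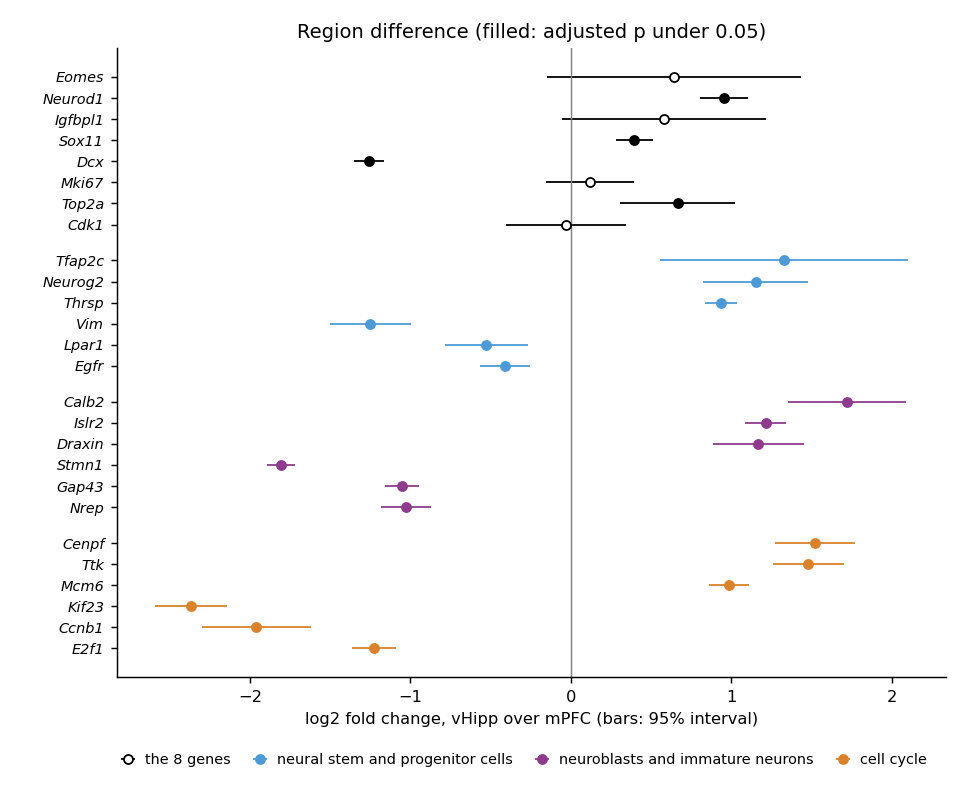
Log2 fold change, vHipp over mPFC, with its 95% interval, for the 8 genes and for up to 3 genes in each direction of the progenitor, immature neuron and cell cycle lists. Filled points passed an adjusted p of 0.05; Dcx (-1.26) lies opposite to Neurod1 (0.96), Sox11 (0.40) and Top2a (0.67), and each list has genes on both sides of 0.

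The wider lists of the same steps also held genes of both directions. Of 16 neural stem and progenitor cell genes, 7 were higher and 6 lower in the vHipp, where 24.4% of all genes tested were higher and 24.5% lower. Neurog2, a proneural bHLH factor, was higher there (0.789 ± 0.382 against 0.356 ± 0.199 CPM, log2 difference 1.15 ± 0.17), as were Thrsp, a lipogenesis regulator (log2 difference 0.94), and the rare Tfap2c (1.33), while Vim, an intermediate filament of glia and vessels as well as of stem cells (-1.25), Lpar1 (-0.53) and the growth factor receptor Egfr (-0.41) were higher in the mPFC. Of 22 neuroblast and immature neuron genes, 11 were higher and 8 lower in the vHipp, against the same shares of all genes. Calb2, a calcium buffer also present in interneurons and mossy cells, differed by 1.72 ± 0.19, Islr2 by 1.22 and Draxin, an axon guidance protein, by 1.17. On the side of Dcx stood Stmn1, another microtubule regulator (83.2 ± 13.3 CPM in the vHipp against 291 ± 32.6 CPM in the mPFC, log2 difference -1.81 ± 0.05), Gap43, a growth cone protein (-1.05), and Nrep (-1.03). The median log2 difference was 0.14 for the progenitor genes, 0.17 for the immature neuron genes and 0.000275 for all genes tested.

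Of 40 further cell cycle genes, 11 were higher and 11 lower in the vHipp, a share near the 48.9% of all genes that passed, and the list's median log2 difference was 0.03. The kinetochore genes Cenpf (1.32 ± 0.473 against 0.456 ± 0.217 CPM, log2 difference 1.52 ± 0.13) and Ttk (1.48), and the replication helicase subunit Mcm6 (0.99), were higher in the vHipp. Kif23, a motor of cytokinesis (0.395 ± 0.186 against 2.04 ± 0.480 CPM, log2 difference -2.37 ± 0.12), Ccnb1, the cyclin partner of Cdk1 (-1.96 ± 0.17), and the transcription factor E2f1 (-1.23) were higher in the mPFC. The log2 differences of the 3 proliferation genes lay between those of Cenpf and Ccnb1.

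The next question was whether CSDS left a trace in these genes. In the vHipp none of the 8 passed the adjusted threshold for stress, averaged over treatments, and neither did any other gene (0 of 28991, or 0%, by edgeR; 2816 genes, or 9.71%, had an unadjusted p under 0.05; DESeq2 called 14, all higher in CSDS mice). At the unadjusted level, 2 of the 8 genes did, Neurod1 and Top2a. Neurod1 was lower in CSDS mice: 19.9 to 42.6 CPM (median 28.6) in CTRL saline, 18.8 to 39.9 CPM (median 26.4) in CTRL ketamine, 14.0 to 40.4 CPM (median 22.6) in CSDS saline and 15.3 to 35.1 CPM (median 20.4) in CSDS ketamine mice. The groups overlapped, and 4 of 10 CSDS saline and 2 of 10 CSDS ketamine mice lay below the lowest control of their treatment. The log2 difference, CSDS minus CTRL, was -0.26 ± 0.12 (p = 0.0315, adjusted p = 0.455).

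Sox11 differed in the same direction by -0.18 ± 0.09 (p = 0.0534, adjusted p = 0.518), with group medians of 16.5 CPM in CTRL saline, 15.8 in CTRL ketamine, 14.3 in CSDS saline and 12.6 in CSDS ketamine mice. Dentate granule markers moved with both genes: the summed CPM of the 9 markers was 719 ± 211 in CTRL saline, 716 ± 162 in CTRL ketamine, 588 ± 195 in CSDS saline and 529 ± 159 in CSDS ketamine mice (SD, n = 10 each), and 5 of the 9 were lower in CSDS mice at an unadjusted p under 0.05, as were 4.4% of all genes, with 0 of the 9 after adjustment. C1ql2, a synaptic protein of granule neurons, differed by -0.48 ± 0.14 (p = 0.00168, adjusted p = 0.325). In a fit with the summed marker level as a covariate, an alternative added after the data were seen, the difference was -0.11 for Neurod1 (adjusted p = 0.943) and 0.01 for Sox11 (adjusted p = 0.993). The covariate itself differed between CSDS and CTRL mice, so this fit cannot separate the number of granule neurons from RNA per cell. The cause was not tested. Dcx stayed close to 0, with group medians between 21.7 and 22.6 CPM and a 95% interval of the log2 difference from -0.12 to 0.14.

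Top2a was higher in CSDS mice of the vHipp, with group medians of 0.496 CPM in CTRL saline, 0.527 in CTRL ketamine, 0.566 in CSDS saline and 0.734 in CSDS ketamine mice, all from libraries of 2 to 24 counts. The log2 difference was 0.43 ± 0.20 (p = 0.0354, adjusted p = 0.467), and 0.37 without the library of mouse 11. Marker sums of other cell types also differed between the groups, given here in the order CTRL saline, CTRL ketamine, CSDS saline and CSDS ketamine. By group means, microglial markers summed to 261, 282, 306 and 343 CPM (medians 266, 279, 297 and 280) and oligodendrocyte precursor markers to 315, 323, 336 and 362 CPM (medians 322, 310, 332 and 326). By medians, olfactory-lineage markers summed to 64.9, 68.7, 75.7 and 78.7 CPM and endothelial markers to 129.3, 142.8, 153.9 and 148.3 CPM. Cajal-Retzius markers summed to 171, 204, 206 and 276 CPM by means (medians 154, 199, 212 and 202). At an unadjusted p under 0.05, 6 of 8 microglial, 4 of 6 endothelial, 5 of 12 oligodendrocyte precursor and 5 of 9 olfactory-lineage markers were higher in CSDS mice, as were 5.31% of all genes, and 0 passed adjustment. Their part in the Top2a and Neurod1 values was not tested. Mki67 (0.07 ± 0.19, adjusted p = 0.936) and Igfbpl1 (-0.11 ± 0.27, adjusted p = 0.935) were near 0 with wide intervals. Among the wider lists, 0 genes passed adjustment: at the unadjusted level, which 9.71% of all genes reached, 3 of 40 cell cycle genes were higher and 1 lower, 2 of 16 progenitor genes were higher and 1 lower, and 1 of 22 immature neuron genes was higher and 4 lower. The smallest p-values were those of Bub1, a mitotic checkpoint kinase (-1.06 ± 0.41, p = 0.0136), Uhrf1, which carries DNA methylation through replication (0.35 ± 0.15, p = 0.0205), Tfap2c (-1.24 ± 0.47, p = 0.0119), Prom1 (0.26 ± 0.11, p = 0.0248), Calb2 (-0.85 ± 0.34, p = 0.0154) and Ncam1 (-0.11 ± 0.04, p = 0.0162).

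In the mPFC, 0 of the 8 genes had even an unadjusted p under 0.05 for stress averaged over treatments (3.52% of 28993 genes did, and 0 passed adjustment by edgeR or DESeq2). Dcx differed by -0.05 ± 0.06, Neurod1 by 0.02 ± 0.09 and Sox11 by -0.04 ± 0.07 on the log2 scale. Igfbpl1 gave -1.11 ± 0.60, which became 0.27 without the libraries of mice 10 and 26. The stress effect on Neurod1 differed between the regions by -0.29 ± 0.15 (vHipp minus mPFC; p = 0.0589, adjusted p = 0.726, and adjusted p = 0.492 with the mouse as a block), and 0 of the 8 genes passed for the difference between regions (0% of 31534 genes did).

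**Figure D3:**
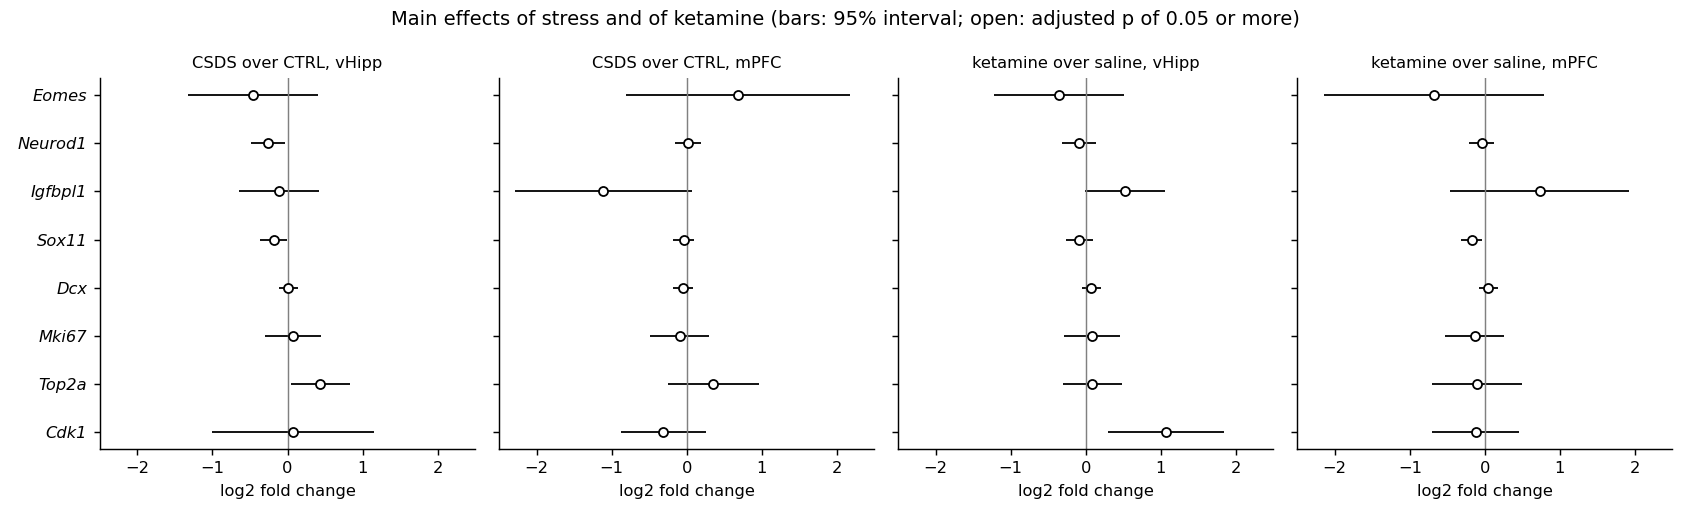
Log2 fold change of each gene, CSDS over CTRL and ketamine over saline, averaged over the other factor, with its 95% interval, in each region. All points are open, since none passed an adjusted p of 0.05; the bars are short for Neurod1, Sox11 and Dcx and wide for the genes with few counts, and 5 intervals do not reach 0: those of Neurod1, Sox11 and Top2a for stress and of Cdk1 for ketamine in the vHipp, and of Sox11 for ketamine in the mPFC.

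Ketamine was compared with saline 7 days after a single injection. In neither region did any of the 8 genes pass adjustment, and 0 of 28991 genes in the vHipp and 0 of 28993 in the mPFC did (0% each, by edgeR and by DESeq2; 3.39% and 3.07% had an unadjusted p under 0.05). Of the 8, Cdk1 in the vHipp and Sox11 in the mPFC did so at the unadjusted level. Cdk1 in the vHipp was counted 11 times over the 10 CSDS saline libraries and 47 times over the 10 CSDS ketamine libraries, against 25 in CTRL saline and 27 in CTRL ketamine. In CPM, CSDS saline mice ran from 0 to 0.222 (median 0.0491) and CSDS ketamine mice from 0.0493 to 0.913 (median 0.219). The groups overlapped, and 4 of the CSDS saline libraries were at 0, where none of the CSDS ketamine libraries was. The log2 difference in CSDS mice was 1.93 ± 0.57 (p = 0.00152, adjusted p = 1.00), and 1.55 without mouse 11, whose library held 12 of the 47 counts together with the highest Mki67 (1.98 CPM) and Top2a (1.37 CPM). In CTRL mice it was 0.21 ± 0.54, and the interaction was 1.72 ± 0.79 (p = 0.0352, adjusted p = 1.00).

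The other proliferation genes gave no such difference in CSDS mice of the vHipp: Mki67 had a log2 difference of 0.10 ± 0.27 and Top2a of 0.17 ± 0.28, ketamine minus saline. Marker sums in the CSDS ketamine group of the vHipp were at 362 ± 90.1 CPM for oligodendrocyte precursors (median 326, with mouse 11 at 569), against 336 ± 43.1 CPM (median 332) in CSDS saline mice, and their part in the Cdk1 result was not tested. Sox11 in the mPFC was lower with ketamine by -0.18 ± 0.07 over both stress groups (p = 0.0150, adjusted p = 1.00) and by -0.27 ± 0.10 in CSDS mice (p = 0.0111, adjusted p = 0.993). CSDS saline mice ran from 9.15 to 15.4 CPM (median 12.9) and CSDS ketamine mice from 6.44 to 12.3 CPM (median 10.1), overlapping ranges. The lowest value, in mouse 3, lay below all other mPFC libraries. In the vHipp, Sox11 gave -0.08 ± 0.09 and Dcx 0.08 ± 0.07 for ketamine, with a 95% interval for Dcx from -0.05 to 0.21. Igfbpl1 gave 0.53 ± 0.27 there (p = 0.0594, adjusted p = 1.00), with medians of 0.388 CPM in CTRL saline and 0.581 CPM in CTRL ketamine mice. In CSDS mice the medians were 0.395 CPM with saline and 0.342 CPM with ketamine, where mouse 3 held 2.17 CPM. The fitted value was 0.19 by limma-voom and 0.26 without mice 1 to 4 and 21 to 24, a set that holds mouse 3.

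Some large fitted differences of rare genes in the mPFC rested on single libraries. Eomes gave 1.92 ± 0.89 for stress in saline mice (p = 0.0376, adjusted p = 1.00) and -1.91 ± 0.94 for ketamine in CSDS mice (p = 0.0487, adjusted p = 0.993). Without the libraries of mice 10 and 26 these were -0.12 and 0.14. Igfbpl1 gave -1.84 ± 0.82 for stress in ketamine mice (p = 0.0299, adjusted p = 0.830), which turned to 0.99 without them. In the library of mouse 26, Dcx (55.4 CPM), Sox11 (11.7 CPM), Mki67 (0.609 CPM) and Top2a (0.254 CPM) stood within the range of the other mPFC libraries. Of the 9 olfactory-lineage markers, 5 were above all other mPFC libraries in it: Dlx1 (36.4 against at most 28.3 CPM), Dlx2 (9.84 against at most 8.64 CPM), Sp9 (11.1 against at most 6.46 CPM), Dlx5 and Vax1, factors of GABAergic and olfactory bulb neuroblasts. Dlx6os1, Sp8, Pax6 and Gsx2 were not. Of the 6 ependymal markers, 5 were above all others, Foxj1 (5.23 against at most 4.19 CPM), Ccdc153 (2.18 against at most 1.07 CPM), Tmem212, Ak7 and Dynlrb2, and Rsph1 was not. Their part in the Igfbpl1 value was not tested.

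In the wider lists, 0 genes passed adjustment in any comparison of stress or ketamine. For ketamine in the vHipp, 0 of 40 cell cycle, 0 of 16 progenitor and 0 of 22 immature neuron genes had an unadjusted p under 0.05, where 3.39% of all genes did. In the mPFC, where 3.07% of all genes had such a p, 1 of 40 cell cycle genes was higher and 2 lower with ketamine at that level, none past adjustment (Mcm6 by -0.13 ± 0.06, p = 0.0404, and Bub1b, a checkpoint kinase, by -0.73 ± 0.35, p = 0.0438), and Bhlhe22, a factor of projection neurons, gave -0.23 ± 0.10 (p = 0.0278) among the immature neuron genes. For stress in the mPFC, Aurkb, a mitotic kinase, gave 1.01 ± 0.36 (p = 0.00734, adjusted p = 1.00). It is named for its small p among 40 cell cycle genes, where 3.52% of all genes had an unadjusted p under 0.05.

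The levels of the well-measured genes also varied between sets of mice. Mouse numbers were divided here into 5 sets of 8, each a run of 4 CSDS and a run of 4 CTRL numbers (mice 1 to 4 and 21 to 24 in set 1, and so on), with 2 mice of every group; the labels do not say what, if anything, a set shared. Neurod1 in the vHipp was 20.5 ± 3.57 CPM in set 1, 34.0 ± 5.52 in set 2, 29.7 ± 8.48 in set 3, 25.6 ± 4.20 in set 4 and 21.2 ± 4.79 in set 5 (SD, n = 8). In the mPFC it was 12.5 ± 1.85, 16.9 ± 1.96 (n = 7), 14.9 ± 2.18, 12.3 ± 1.08 and 11.0 ± 0.829 CPM, again highest in set 2 and then set 3. Dcx in the mPFC ran from 45.6 ± 5.51 CPM in set 1 to 60.6 ± 5.13 CPM in set 4. In the vHipp, Dcx varied less, from 20.1 ± 2.00 CPM in set 5 to 24.5 ± 3.70 CPM in set 3. Sox11 ran from 12.0 ± 1.43 CPM (set 1) to 17.3 ± 3.92 CPM (set 4) in the vHipp. In the mPFC, Sox11 ran from 10.4 ± 2.57 CPM (set 1) to 13.3 ± 1.63 CPM (set 2). Differences between sets were not tested. Since every set holds all 4 groups equally, apart from the mPFC library of mouse 5, not analysed here, the sets do not stand in for stress or ketamine, and with the set as a covariate the stress difference of Neurod1 in the vHipp was -0.27 ± 0.08 (adjusted p = 0.245).

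**Figure D4:**
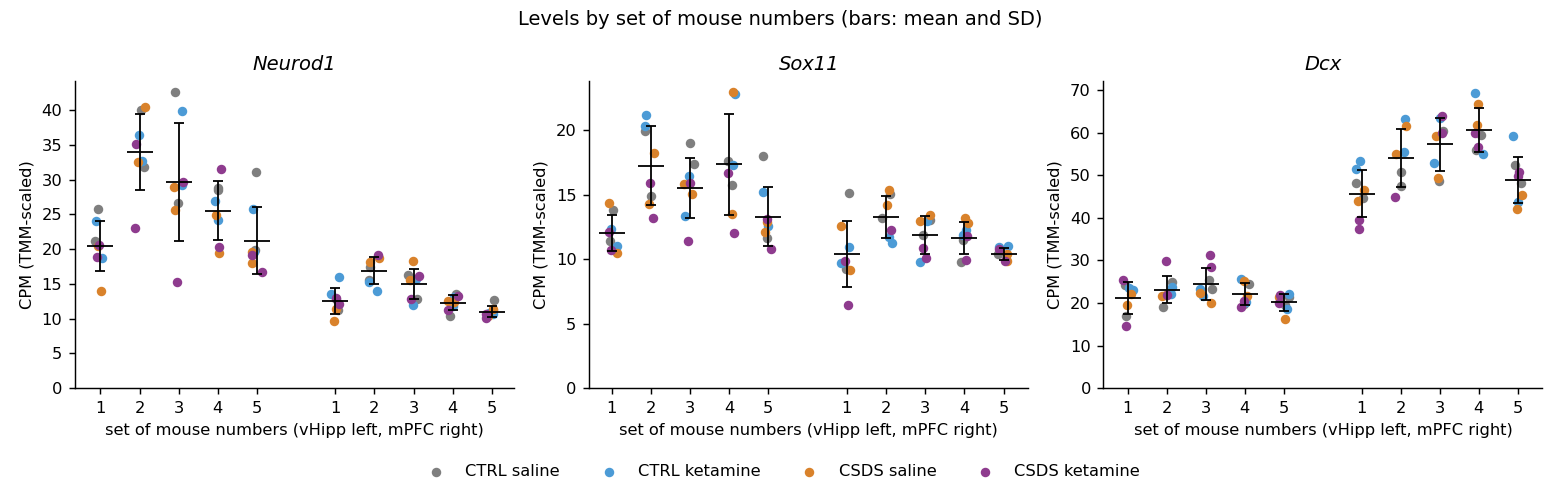
CPM (TMM-scaled) of Neurod1, Sox11 and Dcx by set of mouse numbers, vHipp on the left and mPFC on the right of each panel; points are libraries coloured by group, bars are mean and SD. Neurod1 is highest in set 2 in both regions (34.0 and 16.9 CPM), and all 4 groups take part in each set.

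Levels in the 2 regions of a mouse went together for the well-measured genes. After subtraction of group means, the log2 level in the vHipp and that in the mPFC correlated over 39 mice for Neurod1 (Pearson r = 0.64, permutation p = 3e-05, adjusted over 8 genes 0.00024; Spearman rho = 0.61, p = 4e-05), for Dcx (r = 0.49, permutation p = 0.00128, adjusted 0.00512; rho = 0.43, p = 0.00716) and for Sox11 (r = 0.46, permutation p = 0.00281, adjusted 0.00749; rho = 0.51, p = 0.00118). Without the 2 mice farthest from the vHipp median, r was 0.55, 0.35 and 0.47. With the set means subtracted as well, r fell to 0.20 for Neurod1 and 0.13 for Sox11 (adjusted p = 0.617 for both), so these relations did not hold within sets, while Dcx remained past the threshold. For the 5 rare genes r lay between 0.02 and 0.21, with adjusted p of 0.378 or more.

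Within a region, 6 of 56 pairs of the 8 genes correlated across mice at an adjusted p under 0.05 by Pearson's r (permutation tests with 100000 resamples), and 4 of these 6 also by Spearman's rho. Neurod1 and Sox11 went together in the vHipp (r = 0.58, permutation p = 0.0001, adjusted 0.0028; rho = 0.59, p = 7e-05; r = 0.54 without the 2 farthest mice) and in the mPFC (r = 0.57, permutation p = 0.00018, adjusted 0.00336; rho = 0.62, p = 5e-05; r = 0.52), but within sets r was 0.28 and 0.33 (adjusted p = 0.260 and 0.182). Mki67 and Top2a did so in the mPFC (r = 0.62, permutation p = 1e-05, the smallest these resamples give, adjusted 0.00056; rho = 0.64, p = 2e-05; r = 0.57). In the vHipp their r of 0.50 (permutation p = 0.00078, adjusted 0.00874; rho = 0.42, p = 0.00649, adjusted 0.0727) rested in part on the 2 farthest mice, without which it was 0.27. Top2a and Cdk1 correlated in the mPFC (r = 0.54, permutation p = 0.00049, adjusted 0.00686; rho = 0.52, p = 0.0007; r = 0.51) and in the vHipp (r = 0.44, permutation p = 0.00411, adjusted 0.0384; rho = 0.40, p = 0.00998, adjusted 0.0931; r = 0.46), where the adjusted p was 0.0763 within sets and 0.157 without the library of mouse 11. Dcx correlated past the threshold with none of the other 7 genes in either region.

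The same genes were set against marker lists of cell types. Only group means were subtracted here, and the permutations ignored sets. Sox11 in the vHipp differed between sets, with means of 12.0, 17.2, 15.5, 17.3 and 13.3 CPM in sets 1 to 5. These relations may therefore rest in part on sets. Differences between 2 correlations were not tested. In the vHipp, Sox11 followed the summed dentate granule markers (r = 0.74, permutation p = 1e-05, adjusted over 56 tests 0.00056; rho = 0.78, p = 1e-05; r = 0.79 without the 2 farthest mice), and Neurod1 did so less closely (r = 0.48, permutation p = 0.00173, adjusted 0.0121; rho = 0.42, p = 0.00737, adjusted 0.0643; r = 0.44). Neurod1 ran against the oligodendrocyte precursor markers (r = -0.55, permutation p = 0.00022, adjusted 0.00302; rho = -0.54, p = 0.00045; r = -0.47). Of the proliferation genes, 2 ran with those markers in the vHipp: Mki67 (r = 0.55, permutation p = 0.00027, adjusted 0.00302; rho = 0.53, p = 0.00052; r = 0.46) and Cdk1 (r = 0.58, permutation p = 0.00011, adjusted 0.00224; rho = 0.45, p = 0.00378; r = 0.44). Top2a did not pass (r = 0.36, adjusted p = 0.124), and in the mPFC none of the 3 did (r = -0.06 for Mki67, 0.26 for Top2a and 0.29 for Cdk1). Without the library of mouse 11, r was 0.43 for Mki67 (adjusted p = 0.0570) and 0.45 for Cdk1 (adjusted p = 0.0418). The mean sum of the olfactory-lineage list was alike in the vHipp (73.4 CPM) and the mPFC (73.3 CPM), so the list is not read as neuroblasts. In the vHipp, the library of mouse 11 was highest both in this list (159 CPM) and in Mki67 (1.98 CPM). Mki67 also followed the olfactory-lineage markers in the vHipp (r = 0.58, permutation p = 0.00012, adjusted 0.00224; rho = 0.56, p = 0.0002; r = 0.46), as did Cdk1 (r = 0.49, permutation p = 0.00108, adjusted 0.00864; rho = 0.39, p = 0.0125, adjusted 0.0874), for which r was 0.25 without the 2 farthest mice and 0.29 without the library of mouse 11. Igfbpl1 followed the olfactory-lineage markers in the mPFC (r = 0.55, permutation p = 0.00055, adjusted 0.00513; rho = 0.34, p = 0.0359, adjusted 0.223), a relation that rested on few libraries: r was 0.26 without the 2 farthest mice and 0.33 without those of mice 10 and 26.

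**Figure D5:**
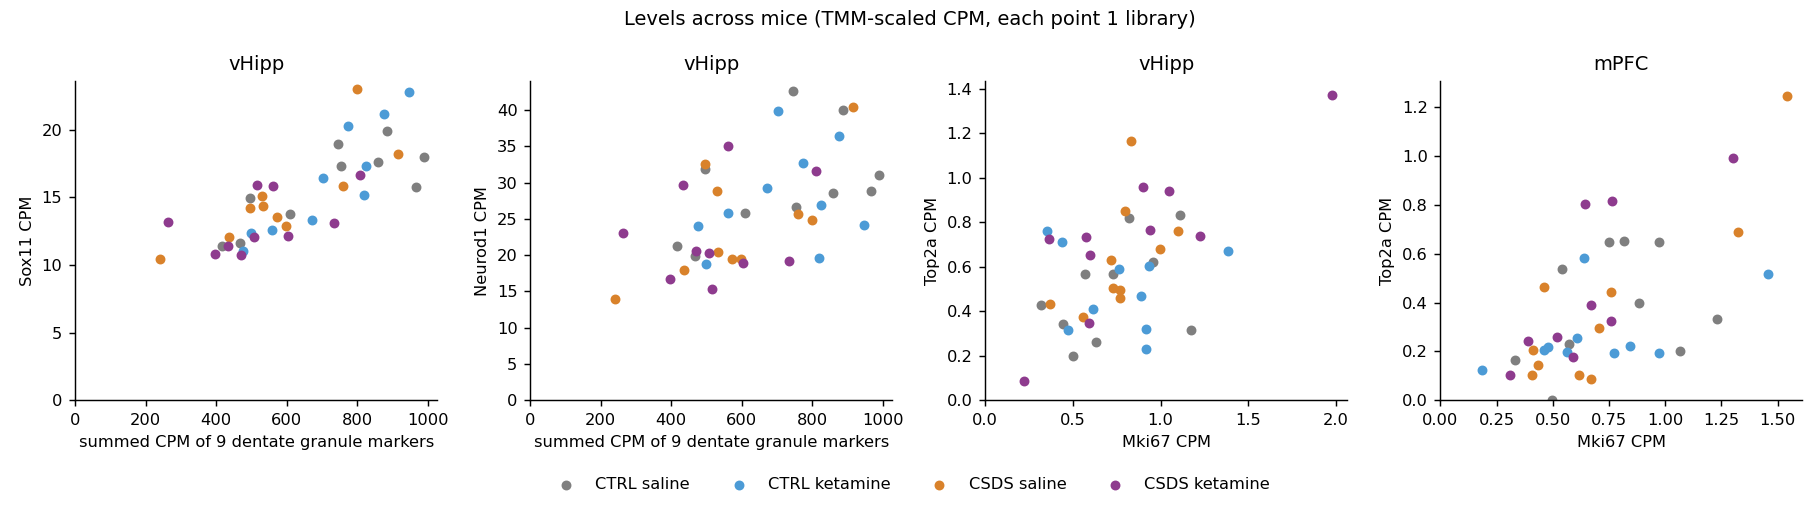
Levels across mice (CPM, TMM-scaled, linear axes from 0), each point 1 library coloured by group: Sox11 and Neurod1 against the summed dentate granule markers in the vHipp, and Top2a against Mki67 in each region. Sox11 rises with the marker sum, Neurod1 is more scattered, and the library at the upper right of the vHipp panel of Top2a is that of mouse 11.

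The genes whose pattern across mice was most like each member's, among 15572 genes of at least 1 CPM in the vHipp and 15654 in the mPFC, are given by r as a description, with no test. In the vHipp, Neurod1 was closest to Gabra4, a GABA receptor subunit of granule neurons, Pkia and Bhlhe22 (r from 0.86 to 0.85), Sox11 to Dusp11, Rfx3 and Cbfb (r from 0.83 to 0.81), and Dcx to Bmpr2, a BMP receptor, Osbpl8 and Mkln1 (r near 0.81). In the mPFC, Neurod1 was closest to Hnrnph1, Zbtb18 and Rnf2 (r from 0.83 to 0.82), Sox11 to Guf1 and mt-Ti (r near 0.74), and Dcx to B230334C09Rik (r = 0.88), Hdx and Abi2 (r near 0.81). For the rare genes, the leading values in the vHipp were 0.71 for Mki67 with Hadhb (then Wls and Itgb1), 0.69 for Top2a with Pak2 (then Zhx3 and Hipk1), 0.66 for Cdk1 with Ak3 (then Frrs1 and Dio2), 0.55 for Eomes with Gm43328 (then ENSMUSG00000118125 and Ttc4) and 0.52 for Igfbpl1 with Ppm1d (then Qtrt2 and Gm45501). In the mPFC they were 0.58 for Mki67 with Efcab2 (then Gm9517 and Ramac), 0.62 for Top2a with A730056A06Rik (then Gm9517 and Tbc1d8b), 0.67 for Cdk1 with Itgam, a microglial integrin (then Akip1 and Car3), 0.56 for Eomes with Snx14 (then Pisd-ps2 and Gm12216) and 0.78 for Igfbpl1 with Prkcd (then Magel2 and Ano2). Without the libraries that stood apart, the r of Igfbpl1 with Prkcd was 0.56 and that of Eomes with Snx14 was 0.26.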

How the data were processed

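The authors punched vHipp and mPFC, made stranded mRNA libraries and counted reads on genes of GRCm38. The deposited values are read counts that are not normalized, and the aligner and counter are not given in the sources used here. The submitters' processing notes name bcl2fastq 2.20.0.422 and CASAVA. Groups came from the sample titles. Symbols and positions came from GENCODE M21 (55144 of 55471 identifiers matched). Genes with more than 10 counts in total and detected in more than 3 libraries were tested with edgeR's quasi-likelihood test (edgeR 4.0.16, R 4.3.3, TMM, 4 groups per region or 8 over both, no covariate, two-sided, Benjamini-Hochberg at 0.05), with DESeq2 1.42.0 and limma-voom 3.58.1 as alternatives. SE is the absolute log2 fold change over the square root of F, and 95% intervals take it as normal. Replicates are separate mice. The study's methods house them in groups of 4, either stressed or control, and use the group as a model term; the labels do not name a mouse's group, so no such term was used here. Mice were treated as independent, and p-values for stress may be too small, since group and stress cannot be told apart. Libraries of a mouse in both regions are paired by its number (median r of deviations 0.27 for the same mouse and -0.0029 for other mice, over 15701 genes). Correlations used log2 CPM with a prior count of 2, group means subtracted (scipy 1.17.1). The genes and the wider lists were chosen with earlier results of these data known. Named genes were all 8 members, from each wider list up to 3 per direction by log2 difference among genes past the threshold, otherwise the 2 smallest p-values, and the 3 closest genes per member and region, of which 1 is not reported here. The olfactory-lineage and ependymal markers of mouse 26 were chosen after their values were seen. The code was tested on simulated data.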

Additional observations from a re-analysis of the deposited data

Results flagged for a closer look

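Each gene and group of 9 or 10 libraries was searched for a library far from the others by Dixon's criterion, 64 sets in all. About 3.2 would be flagged by chance if levels were normally distributed. Genes with few counts do not meet that condition, so the 12 flags found cannot be set against this number. In the vHipp, Eomes was high in mouse 38 (CTRL saline, 0.433 CPM from 9 counts), mouse 7 (CSDS saline, 0.274 CPM from 6 counts) and mouse 14 (CSDS ketamine, 0.300 CPM from 5 counts). Igfbpl1 was high in mouse 3 (CSDS ketamine, 2.17 CPM from 40 counts), and Cdk1 in mouse 11 (CSDS ketamine, 0.913 CPM from 12 counts). In the mPFC, Eomes was high in mouse 10 (CSDS saline, 1.02 CPM from 23 counts), Igfbpl1 in mouse 26 (CTRL ketamine, 7.21 CPM) and in mouse 6 (CSDS ketamine, 0.872 CPM from 17 counts). Mki67 was high in mouse 3 (CSDS ketamine, 1.30 CPM from 21 counts), Top2a in mouse 9 (CSDS saline, 1.24 CPM from 25 counts) and Cdk1 in mouse 27 (CTRL saline, 0.380 CPM from 7 counts). Sox11 was low in mouse 3 (CSDS ketamine, mPFC, 6.44 CPM). No effect of stress or ketamine on the 8 genes differed between groups or regions at an adjusted p under 0.05 by edgeR.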

How the results depend on the processing

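The limits are those of rare transcripts in bulk tissue: the fitted differences of Eomes, Cdk1 and Igfbpl1 moved with single libraries in several comparisons, while the region difference of Top2a lay between 0.52 and 0.80 with each set left out, and intervals were shortest for Dcx, Neurod1 and Sox11. The number of genes called for stress in the vHipp was 0 by edgeR and 14 by DESeq2, and the cause was not tested. The number of genes correlated between regions was 3, and 1 with the set means subtracted too. The replicate block (mouse) gave 15430 genes called between regions against 15415, moved Igfbpl1 past the threshold (0.99) and Enpp6 below it (-0.31), and changed no other call of a gene printed here.

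Signs turned in these cases, the cause not tested beyond the libraries left out. Leaving out each set gave -0.26 to 0.14 for the region difference of Cdk1, -2.86 to 0.33 for ketamine on Eomes in CSDS mice of the mPFC (0.33 without set 3), -0.24 to 2.73 for stress on Eomes in saline mice of the mPFC (-0.24 without set 3), -1.37 to 1.97 for ketamine on Igfbpl1 in CTRL mice of the mPFC, -2.04 to 0.46 for stress on Igfbpl1 in ketamine mice and -1.34 to 0.064 for stress on it overall there, the last 3 turned by set 2. The fits without named libraries and with the dentate granule covariate were chosen after seeing the data. Without the mPFC libraries of mice 10 and 26 the same 5 mPFC values were 0.14, -0.12, -1.37, 0.99 and 0.27. Limma-voom gave -0.43 for ketamine on Igfbpl1 in CTRL mice of the mPFC. The dentate granule covariate gave 0.012 for stress on Sox11 in the vHipp. Leaving out each set gave 0.51 to 0.98 for the region difference of Eomes (past the threshold without set 3) and 0.28 to 1.48 for that of Igfbpl1 (past it without set 2), and no other call on the 8 genes changed. The filterByExpr filter leaves out the rarest genes, which then have no value.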
